A study of Mus musculus with 6 samples.

Results

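Ribosomal protein and translation factor genes were followed through Ikaros chromatin immunoprecipitation with sequencing (ChIP-seq) of mouse natural killer (NK) cells. Members were protein-coding genes that the authors' peak lists named for a peak and whose symbols began with Rpl or Rps and a digit, Rplp, Eif and a digit, or Eef and a digit; S6 kinases and Rps19bp1 were left out. This rule gave 11 genes of 2145 protein-coding genes with a row, and 22 rows of 4809. RefSeq's table for this build holds 160 protein-coding genes with such names, 89 of them ribosomal and 71 translation factor names, so 149 had no row in any list. Those names also cover proteins that act on the factors, such as eIF2 kinases, eIF4E-binding proteins and factor methyltransferases.

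The cells were wild type (WT) NK cells of mouse spleen, expanded in culture with IL-15 at 50 ng/ml to at least 15000000 cells per replicate, and Ikaros was precipitated with 2 µg of antibody after fixation in 2% formaldehyde. The series also has 3 libraries from NK cells in which Ikzf1, the Ikaros gene, was deleted conditionally through NKp46, a receptor that marks NK cells. Those libraries were not analysed here, so no peak below was set against cells without Ikaros. The 3 WT lists held 685, 2084 and 1342 peaks in replicates 1, 2 and 3, and 5, 9 and 8 of those were named for a member. The labels do not say that the replicates came from separate animals or cultures, and the lists hold no read counts, so depth is unknown. NK cell marker levels cannot be read from peak lists.

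Ribosomal proteins build the small and large subunits of the ribosome, while initiation factors (eIF) bring the small subunit to an mRNA and its start codon and elongation factors (eEF) carry the polypeptide forward. In lymphocytes the output of this machinery increases when cytokines drive growth and division. Ikaros is a zinc finger protein that binds DNA at sites with the core GGGAA and can repress or activate genes.

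The starts of 4 member genes lay inside their Ikaros region and outside the span of any other protein-coding gene. Shown are the bases before the start that lie in both the promoter window (250 bases before a RefSeq start) and the Ikaros region, because they let the promoters under these peaks be compared. Bases after the start are not shown. Each runs 5′ to 3′ on the strand of the gene and ends 1 base before the most upstream start among its RefSeq promoter windows (GRCm38.p6, the build also called mm10). For Eif3k that start is 28981888, while RefSeq's span of the gene reaches 28981890, slightly farther upstream. Capitals mark GGGAA or its reverse complement TTCCC.

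Rps19, chr7:24884342-24884591, plus strand: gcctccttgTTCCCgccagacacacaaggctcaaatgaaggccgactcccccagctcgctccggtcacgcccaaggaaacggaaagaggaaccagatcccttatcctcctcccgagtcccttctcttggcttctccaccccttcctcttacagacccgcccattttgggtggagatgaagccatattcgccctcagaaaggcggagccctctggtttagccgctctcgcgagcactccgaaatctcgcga

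Rpl4, chr9:64173186-64173386, plus strand: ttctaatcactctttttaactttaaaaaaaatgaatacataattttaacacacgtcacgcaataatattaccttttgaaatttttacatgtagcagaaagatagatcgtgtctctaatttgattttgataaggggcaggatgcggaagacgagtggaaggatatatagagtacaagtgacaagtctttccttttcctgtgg

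Rps7, chr12:28635954-28636124, minus strand: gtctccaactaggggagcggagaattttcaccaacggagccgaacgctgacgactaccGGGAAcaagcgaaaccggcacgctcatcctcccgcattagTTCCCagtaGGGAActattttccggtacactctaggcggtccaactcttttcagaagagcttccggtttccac

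Eif3k, chr7:28981889-28981979, minus strand: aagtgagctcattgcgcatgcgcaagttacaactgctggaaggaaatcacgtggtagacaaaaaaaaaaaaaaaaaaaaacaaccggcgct

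These stretches differed in composition. Bases G and C made up 58.8% of the Rps19 stretch and 54.4% of the Rps7 stretch, against 32.8% of the Rpl4 stretch and 40.7% of the Eif3k stretch. The core stood 3 times in the Rps7 stretch, once in the Rps19 stretch and not in those of Rpl4 and Eif3k.

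Peaks that shared at least 1 base between lists were joined into regions, and a gene was counted by the largest number of lists that shared 1 region named for it. A peak in any list was named for 11 of 160 family genes, 6.88% (95% Clopper-Pearson interval 3.48 to 12.0), against 9.36% of 21896 protein-coding genes. A region in 2 or more lists was named for 6 family genes, 3.75% (1.39 to 7.98), against 4.36% of all protein-coding genes. A region in all lists was named for 4, 2.50% (0.685 to 6.28), against 1.99%. Each interval of the family contained the value of all genes, so no departure was detectable with so few genes; intervals cover counting error over genes only. When regions also had to lie within 1000 bp of the gene by the authors' distance, 4 family genes were left in 2 or more lists, 2.50%, against 3.97%.

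Genes were sorted into groups by symbol prefix alone, so the eIF group also holds Eif1ad and the kinase gene Eif2ak3. Of the 6 genes whose region recurred in at least 2 lists, 3 were large subunit genes of 56 (Rpl4, Rpl37 and Rplp1). The others were 1 of 33 small subunit genes (Rps19) and 2 of 56 eIF genes (Eif3h and Eif1ad). The shares of these groups were 5.36% (1.12 to 14.9), 3.03% (0.0767 to 15.8) and 3.57% (0.435 to 12.3). Each interval contained the 4.36% of all protein-coding genes, so no departure of a group from all genes was detectable. The groups were not compared with each other. Members with a region in 1 list were Rpl22l1, Rps7, Eif3k, Eif4a1 and Eif2ak3. None of the 15 eEF genes had a peak in any list, which allows a share of up to 21.8% by the same interval. That range contained the 9.36% of all protein-coding genes. Of members with a row, 6 of 11 had a region in 2 or more lists, 54.5% (23.4 to 83.3), against 46.8% of the other 2134 protein-coding genes with a row. In all lists the shares were 36.4% of members (10.9 to 69.2) and 21.6% of the others. Both intervals of the members again contained the value of the others.

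**Figure D1:**
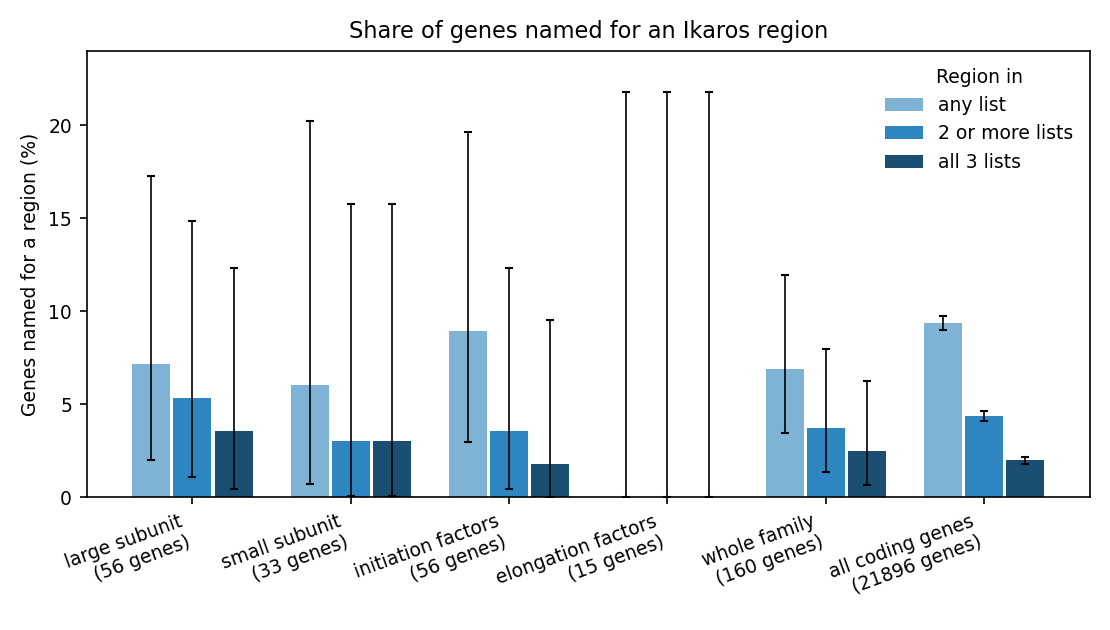
Share of genes (%, vertical axis) named for an Ikaros region in any list, in 2 or more lists and in all 3 lists, for large subunit, small subunit, initiation and elongation factor genes, the whole family and all protein-coding genes; bars are shares and error lines are 95% Clopper-Pearson intervals. Groups within the family follow symbol prefixes. The whole family stood at 6.88%, 3.75% and 2.50%, and all protein-coding genes at 9.36%, 4.36% and 1.99%.

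Rps19 had the strongest member peak in every list. It encodes a small subunit protein that is mutated in Diamond-Blackfan anaemia, a failure of red cell production in humans. Its region (ENSMUSG00000040952) spanned 886 bp on chromosome 7, 24883970 to 24884855. The fold enrichments that the authors gave its peaks were 6.31, 12.0 and 10.3 in replicates 1, 2 and 3. Fold enrichment belongs to its own list, so peaks were ranked within each list, 100 being the strongest. By that rank Rps19 stood at percentiles of 81.5, 97.6 and 95.8 (mean 91.6, SD 8.87, n = 3), so it was above percentile 75 in each list.

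The Rps19 peaks were also wide, at 564, 809 and 874 bp in replicates 1, 2 and 3, which put them at percentiles of 86.6, 92.0 and 93.8 for width. Their −log10 q values were 8.59, 28.8 and 22.1. Among the 500 regions in all lists, the Rps19 region ranked 70th by mean percentile. No other RefSeq gene lay within 1 kb, and the nearest, Dmrtc2, was 6.32 kb away. The peaks ran across the first RefSeq start of the gene, with the midpoint of the region 179.5 bp before it.

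Rpl4, a large subunit protein of the wall of the tunnel through which new polypeptides leave the ribosome, had a region on chromosome 9, 64173186 to 64173510 (ENSMUSG00000032399). Its fold enrichments were 5.53, 6.14 and 7.67 in replicates 1, 2 and 3, at percentiles of 65.0, 82.3 and 90.8 (mean 79.4, SD 13.2, n = 3). All 3 peaks lay above the middle of their list, and the region ranked 152nd of the 500. Its midpoint was 39 bp before the Rpl4 start. The gene Zwilch, which encodes a kinetochore protein, lay 82 bp from the region, so Rpl4 and Zwilch were both close to it.

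Rpl37 encodes a small, zinc-binding protein of the large subunit. Its region lay on chromosome 15, 5116176 to 5116570 (ENSMUSG00000041841). Fold enrichments were 4.94, 7.21 and 6.86 in replicates 1, 2 and 3, at percentiles of 43.5, 90.0 and 85.9 (mean 73.1, SD 25.8, n = 3). Replicates 2 and 3 thus placed it above percentile 75, and replicate 1 below the middle of its list. The region ranked 194th of the 500. It ended 43 bp before the RefSeq start of Rpl37 and overlapped Card6, a caspase recruitment domain gene, for which these peaks had no row in the authors' lists. Which of the pair the peak belongs to was not tested.

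The fourth region in all lists was named for Eif3h, a subunit of the initiation factor eIF3 that docks on the small subunit, but it lay 55.5 kb from that gene, on chromosome 15, 51730723 to 51731065 (ENSMUSG00000022312). Fold enrichments were 5.15, 4.46 and 4.94 in replicates 1, 2 and 3, at percentiles of 51.8, 40.0 and 48.7 (mean 46.9, SD 6.11, n = 3). It was near the middle of every list, with the smallest spread of percentiles among the 4 regions in all lists, and ranked 363rd of the 500. The nearest RefSeq gene of any kind was Gm41320, a long noncoding RNA gene 36.8 kb away, and the next protein-coding gene, Utp23, was 146 kb away. The name Eif3h here is that of the nearest protein-coding gene and nothing more was measured.

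Peaks of these 4 regions fell at nearly the same place in each list. Midpoints differed between lists by 32 to 82 bp, with a median of 63.5 bp, against a median of 48.5 bp for the other 495 regions with 1 peak in each list. The Rpl4 midpoints differed least, by 32 bp, and those of Eif3h most, by 82 bp.

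Regions in replicates 2 and 3 but not in replicate 1, which had the shortest list, were those of Eif1ad and of Rplp1. Eif1ad encodes a protein with a domain like that of the initiation factor eIF1A. Its region on chromosome 19, 5366725 to 5367061 (ENSMUSG00000024841), showed enrichment of 5.24-fold in replicate 2 and 4.31-fold in replicate 3, at percentiles of 65.5 and 25.6. The ends of its peaks differed little between lists, and the midpoints were 1.5 bp apart, while the percentiles stood on either side of the middle. The region covered the start of Eif1ad and also overlapped Banf1, a gene of a DNA-binding protein of the nuclear envelope. The authors' lists had a row for Eif1ad only.

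Rplp1 encodes an acidic protein of the ribosomal stalk, which recruits elongation factors. It was the nearest protein-coding gene of 2 regions on chromosome 9, at 211 and 218 kb (ENSMUSG00000007892). The first, 61702252 to 61702583, was enriched 4.06-fold in replicate 2 and 4.12-fold in replicate 3, at percentiles of 23.8 and 19.7. The second, 61695314 to 61695577, was in replicate 2 alone, with a fold enrichment of 7.31 at percentile 90.4. By fold enrichment it was stronger in replicate 2 than the peaks of Rpl37 and Rpl4 there, and it had no partner in replicates 1 and 3. By −log10 q in replicate 2 it stood at 8.74, below Rpl37 at 10.1 and above Rpl4 at 8.39. Kif23, a kinesin gene, was only slightly farther, at 215 and 222 kb, so the assignment to Rplp1 rests on a small difference in distance.

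**Figure D2:**
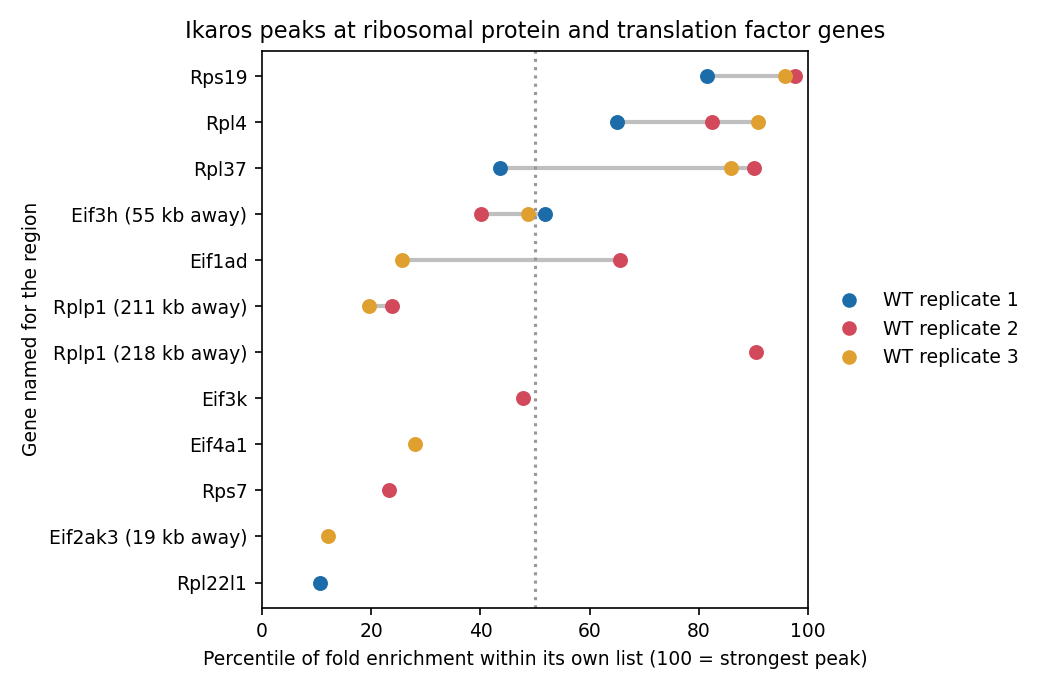
Percentile of fold enrichment of each peak within its own list (horizontal axis, 100 being the strongest), for the 12 regions named for members (rows) in WT replicates 1, 2 and 3 (points); grey lines join the lowest and highest and the dotted line marks the middle of a list. Rps19 stands at 81.5, 97.6 and 95.8, Eif3h near the middle in every list, and Rpl22l1 lowest at 10.7.

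The 5 members with a region in 1 list all stood below the middle of that list. How often other regions in 1 list do so was not computed. The Rplp1 region in replicate 2 alone, at percentile 90.4, is not among the 5 because Rplp1 also had a recurring region. Eif3k, another eIF3 subunit, was at percentile 47.7 in replicate 2 with a fold enrichment of 4.68. Eif4a1, the RNA helicase that unwinds mRNA leaders, was at 27.9 in replicate 3 with a fold enrichment of 4.38. Rps7, a small subunit protein, was at 23.3 in replicate 2 with a fold enrichment of 4.05. These 3 regions overlapped their genes.

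Eif2ak3, which encodes PERK, the kinase that slows initiation under stress of the endoplasmic reticulum, was at percentile 12.0 in replicate 3 with a fold enrichment of 3.95. Rpl22l1, a paralogue of the large subunit gene Rpl22, was at 10.7 in replicate 1 with a fold enrichment of 4.00. Both were close to the lower limit of their lists. Their −log10 q values were 1.50 for Eif2ak3 and 1.52 for Rpl22l1, while the lowest values were 1.12 in replicate 3, which held the Eif2ak3 peak, and 1.15 in replicate 1, which held that of Rpl22l1. The Eif2ak3 region lay 19.4 kb from the gene, on the upstream side, and the Rpl22l1 region inside the gene.

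Taken over all members, median percentiles were 51.8, 65.5 and 38.3 in replicates 1, 2 and 3, and those of other peaks named for protein-coding genes were 49.9, 49.0 and 49.3. Members ranged from 10.7 to 81.5 in replicate 1, from 23.3 to 97.6 in replicate 2 and from 12.0 to 95.8 in replicate 3. The medians of the members fell on both sides of the middle. Rps19 led the members in each list, Rpl4 stood above Rpl37 in replicates 1 and 3, and Rpl37 stood above Rpl4 in replicate 2.

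Of the 12 member regions, 7 had their midpoint within 1000 bp of an end of a protein-coding gene, 58.3% (27.7 to 84.8), against 54.9% (52.7 to 57.0) of the other 2140 regions named for protein-coding genes. For regions in 2 or more lists the counts were 4 of 6 members, 66.7% (22.3 to 95.7), and 535 of 927 others, 57.7%. The intervals overlapped in both comparisons. RefSeq starts were on hand for 9 of the 11 members, with Eif3h and Rplp1 missing. The regions of Rps19, Rpl4, Rps7, Eif3k and Eif1ad contained a start of their gene.

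For the 8 members whose region lay within 1000 bp of the gene, midpoints ran from 240 bp before the start in Rpl37 to 1026 bp after it in Eif4a1. Rps7 had its midpoint 34 bp before the start and Eif3k 9 bp after it, and those of Eif1ad and Rpl22l1 were 80 and 163 bp after it. The Eif3k region was also 71 bp from Map4k1, the gene of a kinase that restrains lymphocyte receptor signalling. Thus 4 of these 8 regions lay within 1 kb of another protein-coding gene: Zwilch, Card6, Banf1 and Map4k1. The same share over all regions named for protein-coding genes was not computed. Rps19, Rps7 and Eif4a1 had no other RefSeq gene within 1 kb, and Rpl22l1 had the long noncoding RNA gene Gm32950 at 220 bp.

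**Figure D3:**
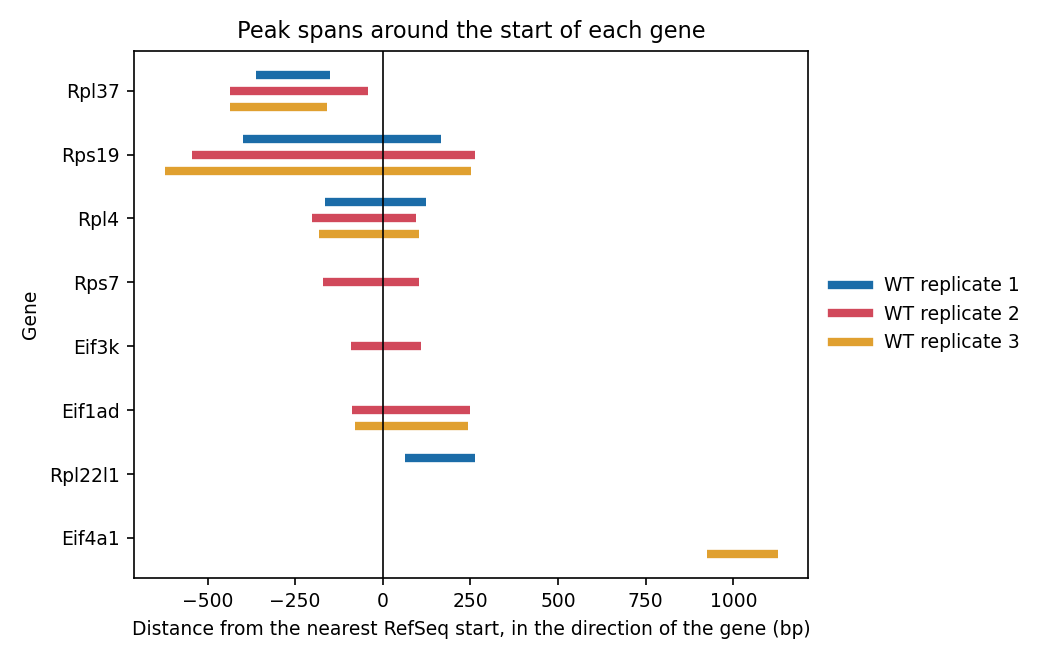
Spans of the peaks around the RefSeq start of each of 8 members (horizontal axis, bp in the direction of the gene, 0 being the start), coloured by WT replicate 1, 2 and 3. Peaks of Rps19, Rpl4, Rps7, Eif3k and Eif1ad cross the start, those of Rpl37 end before it, and that of Eif4a1 lies about 1 kb inside the gene, with its midpoint at 1026 bp.

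The Ikaros core was searched for in RefSeq promoter windows, each 250 bases before a start and 50 after it, on both strands. GGGAA or TTCCC was in 7 of 11 windows of the 9 members with one, 63.6% (30.8 to 89.1). Rps19 has 3 of these windows, some of which hold the same motifs, so the windows are not independent and the interval is too narrow. It was in 99 of 150 windows of 123 family genes, 66.0% (57.8 to 73.5), and in 62.7% of all 32851 windows. The core is thus in most promoters, and the intervals of both the members and the family contained the value of all windows. For the longer form TGGGAA, the shares were 18.2% of members, 24.7% of the family and 25.6% of all windows. The shorter GGAA, which is also the core of ETS factor sites and is contained in both other forms, was in 98.0% of family windows and 96.0% of all.

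Inside the peak regions the windows held the core at 5 distinct places for Rps19, 3 for Rps7 and 1 for Eif3k. Of the 5 in Rps19, the first lay 241 bases before the earliest start, inside the stretch printed above, and the others lay after it. The windows of Rpl4, Rpl37 and Eif1ad, which had regions in 2 or more lists, did not hold these letters. Windows covered 58.0% of the Rps19 region, 77.2% of that of Rpl4, 52.7% of that of Rpl37, 40.9% of that of Eif1ad, 80.4% of that of Rps7 and 70.1% of that of Eif3k. The rest of each region was not searched, so these counts are incomplete.

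Ribosomal protein mRNAs are known for leaders that open with a C and a run of pyrimidines. By RefSeq starts, a C at the start followed by 4 pyrimidines was found in 15 of 80 windows of ribosomal protein genes, 18.8% (10.9 to 29.0), in 2.86% of translation factor windows and in 2.51% of all windows. It was found in 0 of 11 windows of members, ribosomal and factor genes together, which allows up to 28.5% if the windows are taken as independent. An annotated start that is off by a few bases is missed by this count.

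A further family gene had a region near its start that the authors named for a neighbour. The region on chromosome 12, 78861544 to 78861790, was 282 bp from Eif2s1, the alpha subunit of the factor eIF2 that PERK phosphorylates, and its row names Atp6v1d, a subunit of the vacuolar proton pump. Its fold enrichments were 4.64 and 4.23 in replicates 2 and 3, at percentiles of 46.8 and 23.2. Its midpoint lay 405 bp before the Eif2s1 start. This was the only region within 1 kb of a family gene with no row of its own, and it was singled out after its values had been seen.

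Other genes of the translation pathway were taken from 4 lists. They were matched through RefSeq synonyms as well, while the shares of all protein-coding genes use exact symbols only. No intervals were computed for these lists, so a departure from all genes was not tested. Ribosome biogenesis genes had 9 of 53 members with a peak in any list, 17.0%, and 5 with a region in 2 or more lists, 9.43%, beside 9.36% and 4.36% of all protein-coding genes. The 5 were Polr1d, a subunit of RNA polymerases I and III; Ubtf, the factor that opens ribosomal DNA to polymerase I; Bop1, of large subunit assembly; Nmd3, the export adaptor of the large subunit; and Myc, a transcription factor that drives these genes. None was in all lists. Their percentiles were low or middling, from 7.30 for Polr1d in replicate 1 to 51.0 for the stronger Myc peak in replicate 2, and all of these peaks overlapped the gene.

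The mTORC1 and S6 kinase list had 4 of 27 genes with a peak, 14.8%, and 2, 7.41%, with a region in 2 or more lists, beside 9.36% and 4.36% of all protein-coding genes. These were Rheb, the GTPase that switches mTORC1 on, at percentiles of 51.4 and 48.1 in replicates 1 and 3, and Lamtor2, a subunit of the lysosomal scaffold for mTORC1, at 45.0 and 11.7 in replicates 2 and 3. Of 22 aminoacyl-tRNA synthetase and scaffold genes, 1 had a peak, 4.55%, and its region was in all lists, beside 9.36% of all protein-coding genes with a peak and 1.99% with a region in all lists. That gene was Farsb, the beta subunit of phenylalanyl-tRNA synthetase, in all lists on chromosome 1 at percentiles of 36.9, 97.0 and 89.0. Its peaks overlapped the gene in replicate 1 and lay 75 and 110 bp from it in replicates 2 and 3.

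Among 31 other factors and ribosome partners, 4 had a peak, 12.9%, and 1 had a region in 2 or more lists, 3.23%, beside the same 9.36% and 4.36%. That gene was Pabpc1, which encodes the poly(A)-binding protein of mRNA tails, at percentiles of 10.6 and 9.91 in replicates 2 and 3. Farsb was thus the 1 gene of these 4 lists with a region in all lists. In replicate 2 it stood below Rps19 and above every other member, in replicate 3 below Rps19 and Rpl4, and in replicate 1 below Rps19, Rpl4, Eif3h and Rpl37.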

How the data were processed

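Peaks of 3 WT libraries were used, 1 list each. Members and gene lists were chosen with earlier results of these data known. Tools named in the submitters' processing notes are edgeR 3.20.0, MACS2, SAMtools, Picard and Subread, with the build mm10; their roles, the peak caller's control and its q threshold are not given in the sources used here. Per the file headers, the authors deposited a fold enrichment per peak, a linear ratio, with −log10 p and −log10 q values, a score (not used here), and the gene, distance and biotype. All are the authors' values.

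Rows were reduced to 1 per peak. Overlaps of 1 base or more joined peaks of different lists into regions. In a check of the code, all 350 of 350 simulated sites came back in the right number of lists. Those sites were planted far apart with small shifts, so the check does not show how the rule treats close neighbours or shifted peaks. Of 2145 coding names, 2050 (95.6%) matched RefSeq (GRCm38.p6). Promoter windows and sequences are RefSeq's. All members with a region in 2 or more lists were named, as were all others. No test across genes was run; 95% Clopper-Pearson intervals describe counting error. The pyrimidine count was chosen after the data were seen. Exons and UTRs were not assigned. Python 3.11.15, NumPy 2.4.6, pandas 2.3.3, SciPy 1.17.1 and matplotlib 3.10.9 were used.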

Additional observations from a re-analysis of the deposited data

How the results depend on the processing

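No paired analysis was possible because every value comes from WT lists and groups are not compared. With a −log10 q of 5 or more, 5 members had a peak in any list, 3 (Rps19, Rpl4 and Rpl37) a region in 2 or more lists, 1.88% of the family against 1.85% of all protein-coding genes, and 1 (Rps19) in all lists. With RefSeq spans or the nearest gene within 50 kb in place of the authors' gene column, 3 members had a region in 2 or more lists and 2 in all lists, since Rpl37, Eif3h and Rplp1 drop out; in 2 or more lists that is 1.88% of the family against 4.75% of all protein-coding genes. With every list cut to 685 peaks, 7 had a peak and 3 a region in 2 or more lists. The share of all protein-coding genes at that cut was not computed. Without 1 replicate, 9 to 10 members had a peak, 4 to 6 a region in 2 lists or in all remaining lists, and 54.5% to 70.0% of regions lay at a gene end. Eif1ad and Rplp1 no longer had a region in 2 lists without replicate 2 or replicate 3. A region in 2 lists was named for 3.75%, 2.50% and 2.50% of the family without replicates 1, 2 and 3. The shares of all protein-coding genes were 3.89%, 2.16% and 2.28%. At the changed settings, shares of all genes were computed for 2 or more lists only. Among peaks that reach a −log10 q of 5, the median percentiles of members were 53.8, 72.6 and 78.7 in replicates 1, 2 and 3, over 1, 5 and 3 peaks. That cut drops the weaker member peaks, and percentiles were ranked again among the peaks left. The 1 member peak left in replicate 1, that of Rps19, stood at 53.8 there and at 81.5 in the full list. These medians are thus neither over the same peaks nor on the same scale as those above. With TGGGAA or GGAA as the motif, the share of family promoters was 24.7% or 98.0%. The share of member regions at a gene end was 58.3% with a limit of 500 bp, 66.7% with 5000 bp and 80.0% (4 of 5) at the stricter q, within its interval. A reciprocal overlap of 50%, a distance of 1000 bp and −log10 p ranks kept the counts within 1.5 times and the medians within the spread of the members. Depth is unknown, so absence from a list is not a measured lack of binding.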
